A study of Mus musculus with 9 samples.

Results

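Ikbke, Art2b, Dok2 and Smpd5 are genes that conventional T cells used strongly, that conventional dendritic cells (DC) hardly used, and that still had a sizeable level in the sorted population the submitters call TDC. They were chosen from the measured levels by 3 conditions. The mean in T cells had to be 50 CPM or more (reads of the gene relative to library size, scaled between libraries with TMM factors), the mean in DC at most 1% of the T cell mean, and the mean in TDC over 10% of it. Of 50508 genes in the table, 3567 met the first condition, 93 of these met the second, and 4 of the 93 met the third. These 4 genes are all that the conditions took with TMM factors and means of all libraries. All 4 passed the filter on low counts. Since every library entered the choice, the levels of the 4 genes in T cells, DC and TDC are described here without a test.

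The 9 libraries came from spleens of untreated mice of 8 weeks that were homozygous for Zbtb46-GFP, a reporter allele in which green fluorescent protein marks cells using the Zbtb46 locus of conventional DC. TDC, conventional T cells and conventional DC were sorted from these mice, and all 3 populations carried the same genotype. Each population had 3 libraries made from pooled spleens, of 5 mice for replicate 1 and 6 mice for replicates 2 and 3. How the cells were gated is not stated in the labels. Libraries were made with a kit that reads near the 3′ end of transcripts, and they held 10986544 to 25676640 reads.

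The 4 genes have separate roles. Ikbke encodes IKK epsilon, a kinase related to TBK1 that acts below innate RNA and DNA sensors and Toll-like receptors and leads to the interferon factors IRF3 and IRF7. It is known in macrophages as a kinase induced by bacterial lipopolysaccharide. Dok2 encodes an adaptor that recruits the Ras GTPase-activating protein and dampens receptor signalling in both lymphoid and myeloid cells, and loss of DOK proteins in mice leads to overgrowth of myeloid cells. Art2b encodes a cell surface ADP-ribosyltransferase of mouse T cells, which uses extracellular NAD to modify surface proteins such as the ATP receptor P2RX7. Smpd5 encodes a neutral sphingomyelinase associated with mitochondria, an enzyme that releases ceramide from sphingomyelin. Ikbke and Dok2 thus have well-known uses in macrophages, whereas Art2b is best known from T cells.

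In the mouse annotation of GENCODE M21 (build GRCm38), Ikbke (ENSMUSG00000042349.13) lies on chromosome 1 from 131254343 to 131279606, minus strand. Art2b (ENSMUSG00000030651.5) lies on chromosome 7 from 101576970 to 101585600, minus strand. Dok2 (ENSMUSG00000022102.13) lies on chromosome 14 from 70766036 to 70778495, plus strand, and Smpd5 (ENSMUSG00000071724.5) on chromosome 15 from 76294348 to 76296896, plus strand. All are protein-coding genes on different chromosomes. The count table itself holds no coordinates.

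Promoter sequences from RefSeq (GRCm38.p6) were at hand for 2 of the 4 genes, Ikbke and Art2b, and both are shown. Each comes from the 250 bases before the RefSeq start, on the strand of the gene. The 43 bases nearest to the start of Ikbke and the 18 nearest to that of Art2b lie in exons of GENCODE transcripts and are not printed. The printed runs are chr1:131279607-131279813 for Ikbke and chr7:101581180-101581411 for Art2b (both minus strand). The RefSeq start of Art2b lies 4439 bases inside the gene as GENCODE annotates it, at the start of its shorter transcript, so the Art2b run is intron of the longer transcript. Capitals mark matches, on either strand, to 5 short motifs of transcription factor families used in blood cells. The letters searched were AGGAAG for ETS factors, TGTGGT for RUNX factors, and AGATAA for the factors named after their GATA motif. For TCF and LEF factors they were CTTTGA, and for the AP-1 dimers of FOS and JUN proteins they were TGACTCA.
Ikbke: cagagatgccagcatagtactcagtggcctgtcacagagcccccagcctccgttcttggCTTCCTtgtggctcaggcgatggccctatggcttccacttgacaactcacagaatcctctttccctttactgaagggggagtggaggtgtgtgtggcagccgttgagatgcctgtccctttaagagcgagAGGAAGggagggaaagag
Art2b: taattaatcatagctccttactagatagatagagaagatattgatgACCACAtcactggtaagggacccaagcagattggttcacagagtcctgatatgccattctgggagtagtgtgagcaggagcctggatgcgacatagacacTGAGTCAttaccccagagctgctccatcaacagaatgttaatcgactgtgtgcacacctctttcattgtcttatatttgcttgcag
The Ikbke window held the ETS letters at 2 places, beginning 61 and 191 bases before the RefSeq start. The Art2b window held the RUNX letters beginning 204 bases and the AP-1 letters beginning 104 bases before the RefSeq start. Among 32851 promoters of the same length, 29.5% held the ETS letters, 13.8% the TCF and LEF letters, 10.0% the GATA letters and 4.5% the AP-1 letters, and 4614 promoters held the RUNX letters. The 2 windows had no motif in common, and a match of letters describes the sequence only.

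The sorted populations were checked against marker genes before the levels were read. In TDC all 12 T cell markers had reads, with summed levels of 124.5 to 394.7 CPM against 9616 to 12560 CPM in T cells. In DC 10 of the 12 had reads, and Cd3e and Cd3g had none. The DC sum of 62.35 to 108.5 CPM was mostly Tcf7 and Cd5 (55.87 to 105.4 CPM), singled out after their values were seen, and the other 10 markers summed to 3.024 to 6.479 CPM in DC against 100 to 309.2 CPM in TDC. All 12 markers of red pulp macrophages, the iron-recycling macrophages of the spleen, had reads in TDC with summed levels of 52560 to 82830 CPM, against 188.9 to 317 CPM in DC and 3.376 to 7.754 CPM in T cells. Adgre1, Cd5l, C1qc and Mertk had no reads in T cells. The 9 DC markers summed to 2941 to 3881 CPM in DC, 263.2 to 551.2 CPM in TDC and 949.6 to 1517 CPM in T cells. Among them Ccr7 alone had means of 1194 CPM in T cells, 84.27 CPM in TDC and 1084 CPM in DC. The 6 monocyte markers summed to 7817 to 20720 CPM in TDC, 649 to 1502 CPM in DC and 207.4 to 587.9 CPM in T cells. The TDC sum was mostly Lyz2 and Csf1r, with TDC means of 7944 and 7415 CPM against 586 and 148.2 CPM in DC. Cx3cr1 was also higher in TDC than in DC (90.92 against 35.97 CPM). Ly6c2, Ccr2 and Itgam had lower means in TDC (6.007, 23.16 and 37.37 CPM) than in DC (13.04, 100.9 and 96.95 CPM). In T cells Ly6c2 had a mean of 351.1 CPM. The 5 erythroid markers summed to 242.4 to 536.2 CPM in TDC and at most 6.897 CPM in the controls. TDC libraries therefore carried macrophage RNA at a high level beside a small share of T cell RNA, and the part of either in the levels below was not tested. In such bulk libraries fewer cells using a gene and less RNA per cell cannot be told apart.

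Dok2 had 187.2, 230.5 and 220.5 CPM in T cell replicates 1, 2 and 3, and 129.9, 70.09 and 62.52 CPM in the same replicates of TDC. In DC it had 0.3062 CPM in replicate 1 and no reads in replicates 2 and 3, where 3 reads, the limit that a count of 0 allows, correspond to 0.209 and 0.179 CPM. TDC replicate 1 stood highest among the TDC libraries and still below every T cell library. The means were 212.7 ± 22.68 CPM in T cells, 87.52 ± 36.94 CPM in TDC and 0.102 ± 0.177 CPM in DC (SD, n = 3 libraries each here and below). TDC thus had 41.15% of the T cell level. Dok2 was the only one of the 4 genes that met all conditions library by library, with every T cell library at 50 CPM or more, every DC library at most 1% and every TDC library over 10% of the T cell mean.

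Smpd5 had 52.61, 40.45 and 65.16 CPM in T cell replicates 1, 2 and 3, and 33.65, 23.03 and 18.56 CPM in those of TDC. The highest TDC library, replicate 1, lay close under the lowest T cell library. DC replicate 1 had 0.7272 CPM, which is 1.38% of the T cell mean, and the other DC libraries had no reads. The mean of 25.08 ± 7.755 CPM in TDC was 47.55% of the 52.74 ± 12.36 CPM in T cells, the highest share among the 4 genes, and the mean in DC was 0.242 ± 0.420 CPM. Its T cell mean lay just above the limit of 50 CPM, and Smpd5 left the set without T cell replicate 3.

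Art2b had 94.11, 80.05 and 105.5 CPM in T cell replicates 1, 2 and 3. In TDC it had 8.885, 17.68 and 36.22 CPM in replicates 1, 2 and 3, so replicate 3 was highest, replicate 1 lowest, and all were below every T cell library. All 3 DC libraries had some reads, at 0.6124, 0.9057 and 0.1789 CPM. The means were 93.22 ± 12.74 CPM in T cells, 20.93 ± 13.95 CPM in TDC, which is 22.45% of the T cell level, and 0.566 ± 0.366 CPM in DC. Without TDC replicate 3 the share was 14.19%, so the value rests largely on this library.

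Ikbke had 232.3, 159.3 and 276.4 CPM in T cell replicates 1, 2 and 3, and 15.71, 23.47 and 31.52 CPM in those of TDC. TDC replicate 1 was the lowest of its group, as for Art2b and unlike Dok2 and Smpd5. DC replicate 1 had 0.7655 CPM and the other DC libraries had no reads. The mean of 23.57 ± 7.909 CPM in TDC was 10.59% of the 222.6 ± 59.11 CPM in T cells, just above the limit of 10%, and DC had 0.255 ± 0.442 CPM. Ikbke left the set without TDC replicate 3, with a share of 8.71%, without T cell replicate 2, and when libraries were scaled by size alone (7.04%) or by upper quartiles (8.83%).

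**Figure D1:**
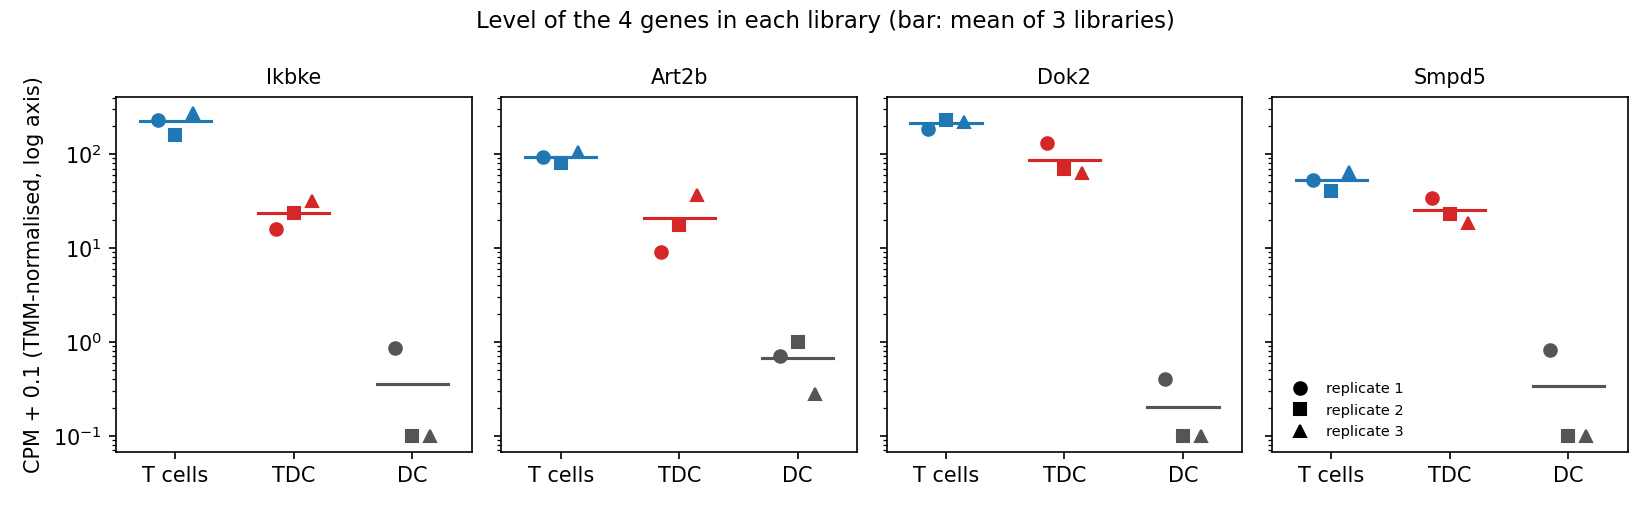
TMM-normalised level of Ikbke, Art2b, Dok2 and Smpd5 in each library, as CPM plus 0.1 on a log axis. Symbols are replicates 1 to 3 of T cells, TDC and DC, and bars are means. In each gene the TDC libraries sit between the T cell and DC libraries; TDC replicate 1 is the highest TDC library for Dok2 and Smpd5 and the lowest for Ikbke and Art2b.

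For all 4 genes the order was T cells, then TDC, then DC, and no library of one population overlapped another. The conditions themselves used these values, so the order is a description. Over all 14708 genes tested, TDC libraries lay below all T cell libraries for 22.4% and above all DC libraries for 20.1%. For 3 of the 4 genes all DC reads came from 1 library. DC replicate 1 held 20 of 20 Ikbke reads, 8 of 8 Dok2 reads, 19 of 19 Smpd5 reads and 16 of 32 Art2b reads in DC. That library was also the deepest (25676640 reads) and had the highest summed level of macrophage markers in DC (317 CPM against 188.9 and 257.4 CPM). Its T cell markers other than Tcf7 and Cd5 summed to 3.024 CPM, the lowest of the DC libraries (6.479 and 4.174 CPM in replicates 2 and 3). The part of these in its reads was not tested.

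The share of the T cell level in TDC was set beside that of the other 89 genes with 50 CPM or more in T cells and DC at most 1%. These genes, which include Cd3e, Cd28, Bcl11b and Zap70, had a median share of 2.36% in TDC, with 3.19% as the upper quartile. The lowest share was 0.542% and the highest 7.84%, and 86 of the 89 were under 5%. At the median share Dok2 would stand at 5.01 CPM in TDC and Smpd5 at 1.24 CPM, against the 87.52 and 25.08 CPM measured. Relative to that median the shares were 4.49 times as high for Ikbke, 9.52 for Art2b, 17.45 for Dok2 and 20.17 for Smpd5. The third condition itself placed the 4 genes over 10% and left the 89 at or under it, so this contrast is a description. The part of T cell RNA in these levels was not tested. With library size alone the ratios were 4.38, 9.59, 16.38 and 18.75. A scaling factor acts on all genes of a library alike, so such ratios could move little.

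**Figure D2:**
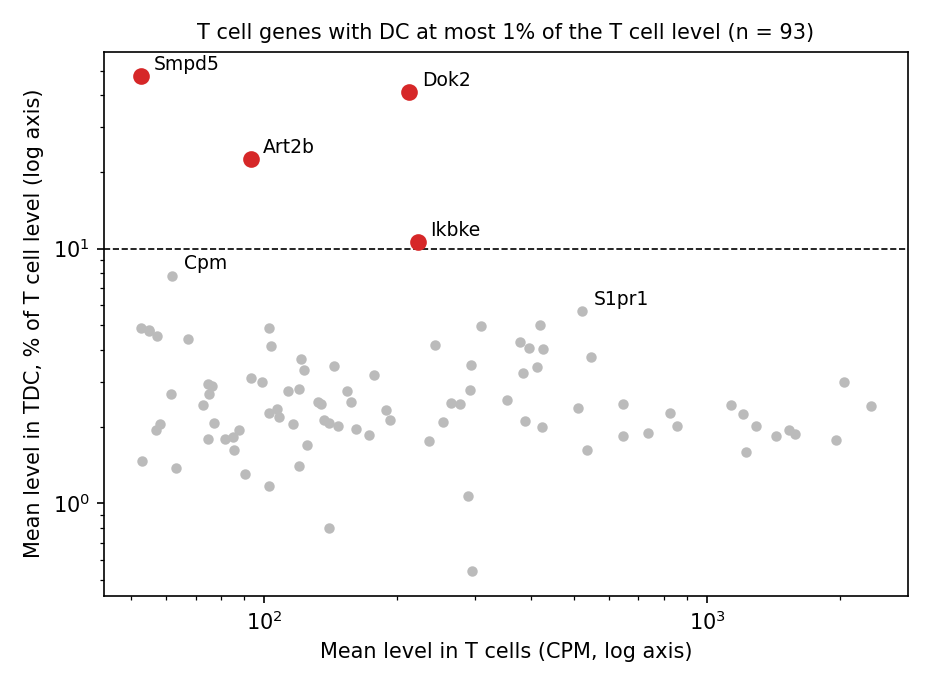
Mean level in TDC as a percentage of the T cell level, against the mean T cell level in CPM, both on log axes, for the 93 genes with DC at most 1% of T cells. The dashed line is the limit of 10%; the 4 genes above it are in red and the other 89, with a median of 2.36%, in grey.

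Just under the limit stood Cpm, which encodes the membrane-bound carboxypeptidase M, with T cells at 61.84 ± 10.59 CPM and TDC at 4.848 ± 2.895 CPM, a share of 7.84%. S1pr1, the receptor by which T cells leave lymphoid tissue, followed at 5.67%, the surface receptor gene Cd6 at 5.01% and Tnfrsf25, a death receptor family gene, at 4.88%. On the other side, genes over 10% in TDC that missed the limit in DC by a little were Cd55, a complement regulator, with DC at 1.005% and TDC at 81.83% of T cells, and Znrf3, a ubiquitin ligase gene of Wnt receptors, with 1.15% and 16.17%. Ephx1, Cd84 and Ecm1 came next, with DC at 1.55%, 1.98% and 2.02%. Ephx1, a detoxifying epoxide hydrolase gene, had 399.2 ± 94.77 CPM in TDC against 129.4 ± 7.718 in T cells, and Cd84, a receptor of the SLAM family, 244.2 ± 35.27 and 132.8 ± 28.68 CPM. Ecm1, an extracellular matrix gene, had 43.19 ± 15.75 and 76.52 ± 8.073 CPM. The number of genes over 10% in TDC differed with the level in DC. It was 4 of 93 where DC had at most 1% of the T cell level, 4 of 14 from 1 to 2%, 6 of 22 from 2 to 5%, 13 of 31 from 5 to 10% and 484 of 522 from 10 to 50%.

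Within single TDC libraries the 4 genes divided into pairs. Median shares of the other 89 genes were 2.31%, 1.05% and 3.76% in TDC replicates 1, 2 and 3, so replicate 2 had the least T cell RNA by this measure. Dok2 stood at 61.09%, 32.95% and 29.39% and Smpd5 at 63.81%, 43.66% and 35.18% of their T cell means in the same libraries. Both were highest in replicate 1 and above all of the 89 genes in each of the 3 libraries. Ikbke stood at 7.05%, 10.54% and 14.16% and Art2b at 9.53%, 18.96% and 38.85%, both highest in replicate 3. In replicate 1 both were under the highest of the 89 genes (12.05%) and in the other replicates above it. None of the 4 was lowest in replicate 2. Markers of other cell types did not share one order over the TDC libraries. Of the 12 red pulp macrophage markers, 6 had the order of Dok2 and Smpd5 (replicate 1, then 2, then 3), among them Hmox1 (17840, 10290 and 7717 CPM), and the other 6 were highest in replicate 2, among them Adgre1 (1515, 3148 and 2000 CPM). The order of Dok2 and Smpd5 was also that of 4 of 5 erythroid, 2 of 6 neutrophil, 2 of 4 platelet and 1 of 5 B cell markers. The reverse order, that of Ikbke and Art2b, was found in 3 of 6 monocyte, 3 of 9 DC, 2 of 12 T cell and 1 of 5 natural killer cell markers. By highest library alone, the T cell markers Cd3d, Cd3e and Cd3g peaked in replicate 1. The other T cell markers peaked in replicate 3, as Ikbke and Art2b did. The T cell marker sums were 271.7, 124.5 and 394.7 CPM in TDC replicates 1, 2 and 3. Some of the counted orders rest on few reads, as for the natural killer cell marker Eomes (0, 0.056 and 1.19 CPM). With 3 libraries such an order carries no test, and the part of these cell types in the 4 genes was not tested.

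**Figure D3:**
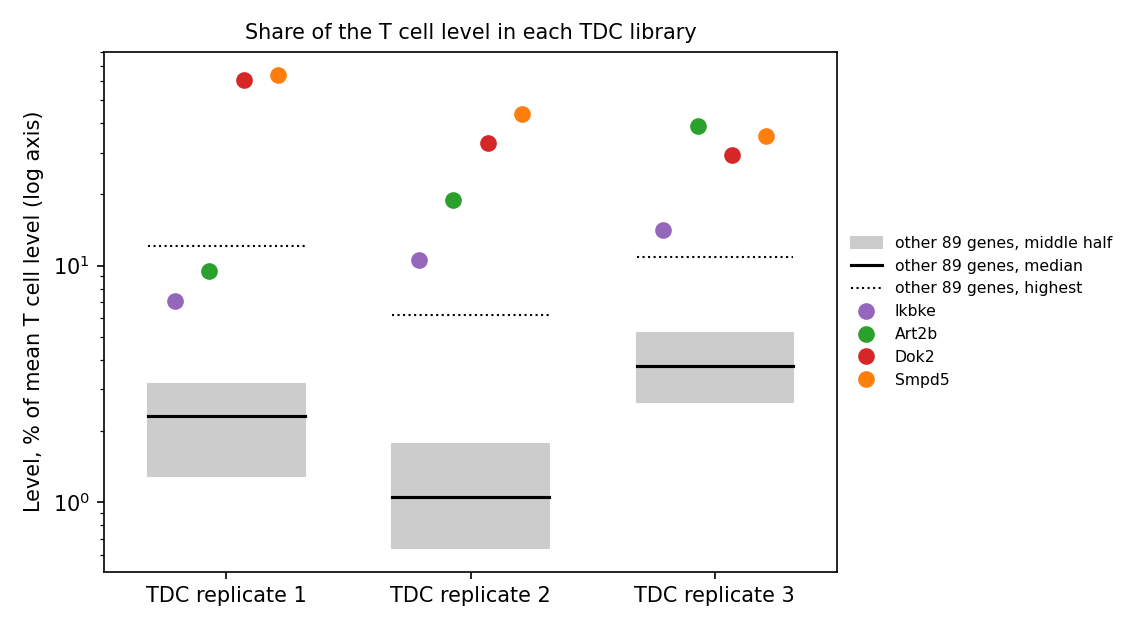
Level of the 4 genes in each TDC library as a percentage of their mean T cell level, on a log axis. Grey boxes, black lines and dotted lines give the middle quartiles, median and highest value of the other 89 T cell genes in the same library; Dok2 and Smpd5 lie above the dotted line in all 3 libraries, Ikbke and Art2b in replicates 2 and 3.

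The genes most like each of the 4 over the 9 libraries, by Pearson correlation of log2(CPM + 1) among 10070 genes, fell into the same pairs. For Ikbke they were S1pr1 (r = 0.99), Znrf3 (0.99) and Klhl6 (0.99), and for Art2b the interferon-induced GTPase gene Gbp6 (0.99), S1pr1 (0.99) and the integrin gene Itga6 (0.98). For Dok2 they were Rasgrp2, an activator of Rap1 (0.99), the alpha-fetoprotein gene Afp (0.99) and Rcbtb2 (0.99), and for Smpd5 Rcbtb2 (0.99), Rasgrp2 (0.99) and Ccdc125 (0.99). Rasgrp2 had 172.5 ± 21.06 CPM in T cells, 130.1 ± 55.43 CPM in TDC and 8.471 ± 1.070 CPM in DC, again with TDC replicate 1 highest (193.0 CPM). Between the 4 genes, r was 0.989 for Ikbke with Art2b, 0.995 for Dok2 with Smpd5 and 0.938 to 0.956 across the pairs. The points are 3 populations of 3 libraries, so these values mostly describe the step between populations.

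Reads of Smpd5 and Art2b could be shared with other genes. The 3′ end of Smpd5 overlaps, tail to tail, the 3′ end of Oplah, the 5-oxoprolinase gene of glutathione metabolism, on the opposite strand. The spans share 296 bases of chromosome 15, from 76296601 to 76296896, in the region that these libraries read. Whether the counting used strand is not stated in the labels. Oplah had 22.53, 68.53 and 33.68 CPM in TDC replicates 1, 2 and 3, at most 1.899 CPM in T cells, 0.4976 CPM in DC replicate 1 and no reads in the other DC libraries. Oplah in TDC exceeded T cells by a log2 fold change of 5.12 (SE 1.02, edgeR quasi-likelihood adjusted p = 0.00353) and DC by 7.70 (SE 1.18, adjusted p = 0.00224). The order of TDC libraries differed between both genes, with Oplah highest in replicate 2 and Smpd5 in replicate 1. T cells had 27.7 to 79.1 Smpd5 reads per Oplah read and TDC 0.336 to 1.49, so T cells had a high Smpd5 level with hardly any Oplah reads, whereas TDC had reads of both. The part of Oplah in the Smpd5 level of TDC was not tested. Dok2 overlaps Xpo7 head to head over 593 bases, at the 5′ end that these libraries do not read, and the antisense genes within Ikbke, Gm28913 and Gm28914, had at most 11 reads in any library.

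Art2b lies on chromosome 7 beside its tandem copy Art2a, listed in the table under the older symbol Art2a-ps and annotated as a polymorphic pseudogene (101552453 to 101560865, minus strand). The longer Art2b transcript was 87.5% identical to that of Art2a over 1189 aligned bases, and 5.1% of its stretches of 50 bases occurred unchanged in Art2a. For the shorter Art2b transcript these values were 87.9% over 862 bases and 15.1%. The alignment ran over bases 1 to 1194 of 2819 for the longer transcript and 1 to 870 of 870 for the shorter. For the longer transcript it thus left out the 3′ end, near which these libraries read. The part of Art2a in the Art2b reads was not tested. Art2a had 2.913 ± 1.840 CPM in T cells, 16.07 ± 3.766 CPM in TDC and 7.911 ± 3.313 CPM in DC, an order of populations unlike that of Art2b. Art2a in TDC exceeded T cells by a log2 fold change of 2.46 (SE 0.62, adjusted p = 0.0120), and its difference from DC of 1.02 was not called (SE 0.60, adjusted p = 0.297). Art2b took 94.1% to 98.3% of the reads of both copies in T cells, 42.9% to 65.5% in TDC and 2.70% to 9.88% in DC. Summed over both copies, TDC had 38.48% and DC 8.82% of the T cell level, so the sum misses the condition on DC that Art2b alone met.

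**Figure D4:**
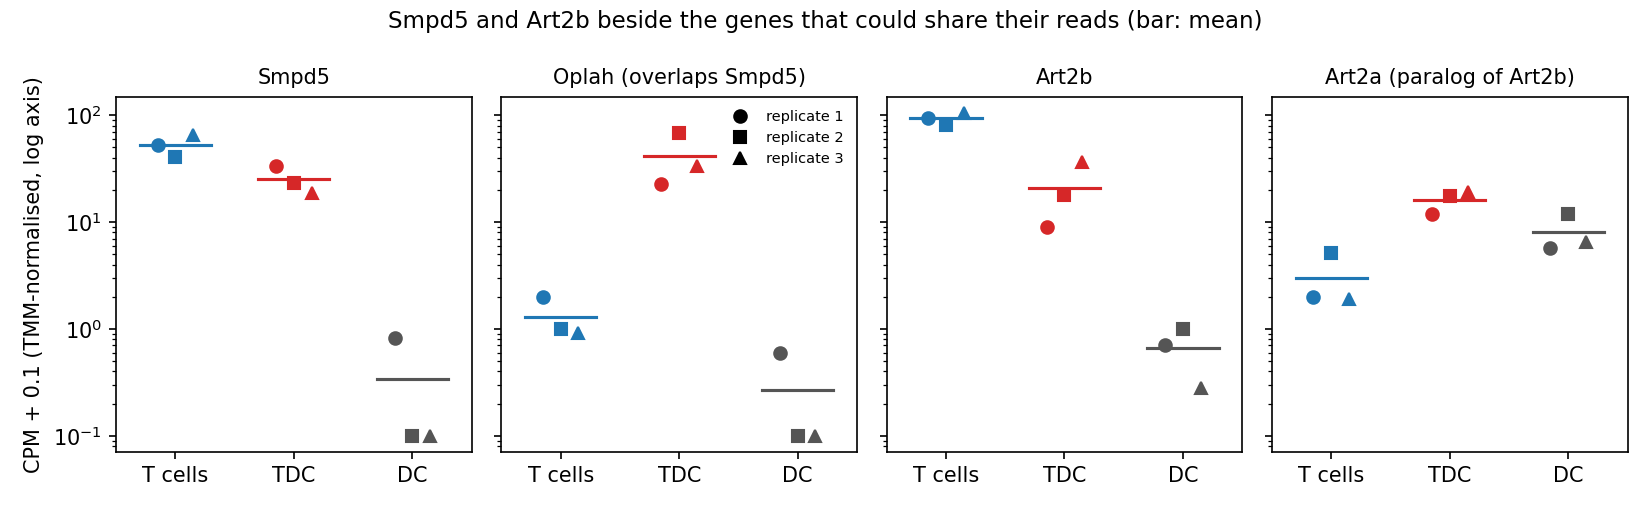
Level of Smpd5 and its overlapping neighbour Oplah, and of Art2b and its tandem copy Art2a, in each library as CPM plus 0.1 on a log axis, with symbols for replicates and bars for means. Oplah is at 22.53 to 68.53 CPM in TDC and at most 1.899 CPM in T cells, and Art2a is higher in TDC and DC than in T cells.

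The relatives and partners of the 4 genes were then compared between populations. They were 88 genes in 4 lists around the 4 genes, of which 80 could be tested with edgeR's quasi-likelihood fit, with Benjamini-Hochberg adjustment over 14708 genes. Against T cells, 32 of the 80 were higher in TDC and 10 lower, where 21.8% of all genes tested were higher and 11.2% lower. Against DC, 22 were higher and 7 lower, where 9.55% of all genes were higher and 4.6% lower. The median log2 fold changes were 0.86 and 0.16, against 0.14 and 0.01 over all genes. Both comparisons share the TDC libraries. Scaled by library size alone, the median of all genes moved to -0.47 and -0.27, and the higher share of all calls from 66% to 42.9% against T cells and from 67.5% to 53.1% against DC.

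Of the 26 kinases, adaptors and factors around IKK epsilon, TDC had 9 higher and 2 lower against T cells, and 4 higher and 4 lower against DC. None of the 4 other kinase complex genes was called between TDC and T cells. Tbk1, the closest relative of Ikbke, had 83.34 ± 12.14 CPM in T cells, 129.7 ± 23.96 CPM in TDC and 114.6 ± 36.52 CPM in DC (adjusted p = 0.145 and 0.768 for TDC against T cells and DC). Ikbkb (190.2 ± 53.61, 121.3 ± 36.06 and 166.3 ± 61.80 CPM) and Ikbkg (28.79 ± 6.602, 54.07 ± 20.56 and 30.91 ± 15.84 CPM) did not pass either (adjusted p = 0.143 to 0.498). Chuk was below DC in TDC, with a log2 fold change of -1.19 (SE 0.28, adjusted p = 0.0178), and did not pass against T cells (adjusted p = 0.748). In DC these 4 genes had 87.43% to 251.2% of their T cell means, against 0.115% for Ikbke. Ikbke was chosen for its low level in DC and the 4 relatives were not, so this contrast follows from the choice.

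Among the partners, Mavs, the mitochondrial adaptor of RNA sensors, was higher in TDC than in both controls, at 150.9 ± 44.21 CPM against 23.10 ± 8.498 CPM in T cells and 18.98 ± 8.669 CPM in DC (adjusted p = 0.00108 and 0.00192). The ubiquitin-binding adaptor Optn (52.91 ± 4.533 CPM in TDC, 1.802 ± 0.630 in T cells, 3.215 ± 3.175 in DC) and the interferon factor Irf7 (342.8 ± 66.50, 146.8 ± 39.61 and 157.2 ± 17.18 CPM) were also higher than in both. With library size alone the calls of Irf7, Relb and Nfkb1 against T cells ended (adjusted p = 0.133, 0.314 and 0.324), as did that of Irf7 against DC (0.0920). With upper quartiles the calls of Relb and Nfkb1 against T cells (0.0719 and 0.083) and of Irf7 against DC (0.0628) ended. Without the filter on low counts those of Nfkb1 against T cells (0.0584) and Irf7 against DC (0.0575) ended too. Irf5, an interferon factor of myeloid cells, and the NF-kB inhibitor Nfkbie were higher than in T cells (adjusted p = 0.000321 and 0.000960). Sike1, a suppressor of IKK epsilon, and Tmem173, which encodes STING, were lower than in T cells (adjusted p = 0.0141 and 0.0154). The NF-kB genes Rel, Relb and Nfkb1 were lower than in DC (log2 fold changes -2.73, -1.99 and -1.81, adjusted p = 0.00568, 0.00277 and 0.00510), while Relb and Nfkb1 were higher than in T cells (adjusted p = 0.0266 and 0.0325). Against T cells, the calls of Relb, Nfkb1, Sike1 and Tmem173 ended when 1 T cell or TDC library was left out (adjusted p = 0.0562 to 0.132, 0.0867 to 0.147, 0.0716, and 0.0547 to 0.0611). Against DC, those of Irf7, Optn and Chuk ended without 1 TDC or DC library (0.0758 to 0.0945, 0.0609 to 0.0760, and 0.0527 to 0.0683). The libraries were, against T cells, T cell replicates 1, 2 and 3 and TDC replicates 2 and 3 for Relb, T cell replicates 1 and 3 and TDC replicates 2 and 3 for Nfkb1, T cell replicate 2 for Sike1, and T cell and TDC replicate 2 for Tmem173. Against DC they were TDC and DC replicates 1 and 3 for Irf7, TDC replicate 2 and DC replicate 1 for Optn, and TDC replicates 1 and 2 for Chuk.

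Of the DOK adaptors, Dok1 and Dok3 were used in TDC beside Dok2. Dok3, which acts in B cells and macrophages, had 124.5 ± 23.87 CPM in TDC, 0.327 ± 0.292 CPM in T cells and 5.937 ± 2.786 CPM in DC, and was called higher in TDC against both, by log2 fold changes of 8.61 and 4.39 (SE 0.77 and 0.61, adjusted p = 2.73e-05 and 0.00141). Dok1 had 8.203 ± 4.364 CPM in T cells, 35.15 ± 7.953 CPM in TDC and 45.86 ± 19.22 CPM in DC, higher in TDC than in T cells (adjusted p = 0.00782) and not called against DC (adjusted p = 0.652). With library size alone the Dok1 call against T cells ended (adjusted p = 0.0528). Dok5, Dok6 and Dok7 had no reads. Dok2 thus stood lowest in DC, Dok1 lowest in T cells, and Dok3 highest in TDC.

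Of the 17 tested genes of that list, TDC had 8 higher and 3 lower against T cells, and 3 higher and 0 lower against DC. Lower than in DC were 2 at an unadjusted edgeR p of 0.05 or less, 1 by DESeq2 after adjustment and 0 by limma-voom. Lyn, a kinase of myeloid and B cells, had 954.1 ± 127.1 CPM in TDC against 0.704 ± 0.614 in T cells (adjusted p = 3.58e-05). The inositol phosphatases Inppl1 (28.23 ± 23.84 against 0.854 ± 0.793 CPM, adjusted p = 0.00318) and Inpp5d (322.4 ± 234.4 against 48.91 ± 4.727 CPM, adjusted p = 0.00632) were higher than in T cells as well. The T cell adaptors Grap2 (4.297 ± 2.340 against 79.75 ± 15.36 CPM) and Sh2d1a (1.198 ± 1.574 against 102.4 ± 30.15 CPM) and the Ras regulator Rasa2 (25.55 ± 5.218 against 96.34 ± 15.71 CPM) were lower (adjusted p = 0.000357, 0.00280 and 0.00143). Grap2 and Sh2d1a had 5.39% and 1.17% of the T cell level in TDC, against 41.15% for Dok2, which was chosen for a high share. Nck1, a partner of DOK proteins, was higher than in both controls (116.7 ± 17.02 CPM against 45.50 ± 6.998 in T cells and 35.16 ± 13.56 in DC, adjusted p = 0.0131 and 0.00894), and the call against T cells ended without T cell or TDC replicate 3 (adjusted p = 0.0565 to 0.0608) and with library size alone (0.156). Sh2d1a had no reads in DC, and its call as higher in TDC (adjusted p = 0.0349) ended without any library except TDC replicate 1 (adjusted p = 0.0504 to 0.0908).

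Genes that handle extracellular NAD and nucleotides, the setting in which the enzyme of Art2b acts, were tested next. Of 14 tested, 8 were higher and 3 lower than in T cells, and 8 higher and 1 lower than in DC. P2rx7, the ATP receptor that ART2 enzymes modify, had 96.91 ± 47.11 CPM in TDC, 16.21 ± 3.756 CPM in T cells and 17.98 ± 3.582 CPM in DC. Its log2 fold changes were 2.58 and 2.43 (SE 0.42 for each, adjusted p = 0.00112 and 0.00395). Cd38, an NAD-consuming surface enzyme, had 849.2 ± 124.2 CPM in TDC against 4.039 ± 1.852 CPM in T cells and 47.79 ± 11.81 CPM in DC (adjusted p = 4.35e-06 and 0.000334). The ATP-degrading enzyme CD39, encoded by Entpd1, and the ATP receptor gene P2rx4 were higher as well, at 540.2 ± 112.9 and 698.8 ± 97.15 CPM in TDC against 2.392 ± 0.846 and 26.54 ± 3.908 CPM in T cells and 50.11 ± 19.65 and 71.89 ± 22.35 CPM in DC. The ectoenzyme gene Enpp1 had 138.4 ± 55.25 CPM in TDC against 11.93 ± 0.403 in T cells and 0.586 ± 0.685 in DC (adjusted p = 0.00505 and 0.000705). The adenosine receptor gene Adora2a was lower than in T cells and DC (0.955 ± 0.567 CPM against 6.369 ± 1.540 and 9.581 ± 3.204 CPM, adjusted p = 0.0140 and 0.0127), and its call against T cells ended without TDC replicate 3 (adjusted p = 0.0505).

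Art4 and Nt5e, which encodes the AMP-degrading enzyme CD73, had the same order of populations as Art2b at a lower level, with no reads in DC. In T cells and TDC, Art4 had 8.909 ± 5.324 and 0.624 ± 0.512 CPM and Nt5e 33.97 ± 10.23 and 3.002 ± 2.631 CPM, which are 7.01% and 8.84% of the T cell level. Both Art4 and Nt5e were lower than in T cells (adjusted p = 0.0228 and 0.0488) and higher than in DC (adjusted p = 0.0231 and 0.0206). Each of these calls ended when 1 of several libraries was left out. Against T cells the libraries were T cell replicates 2 and 3 and TDC replicates 2 and 3 for Art4 (adjusted p = 0.0542 to 0.0828), and those 4, T cell replicate 1 and DC replicate 1 for Nt5e (0.0521 to 0.119). Against DC they were TDC replicates 1 and 2 and DC replicate 1 for Art4 (0.0545 to 0.0655), and TDC replicates 2 and 3 and DC replicate 1 for Nt5e (0.0513 to 0.0588).

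Of 23 tested enzymes of sphingomyelin and ceramide, TDC had 7 higher and 2 lower against T cells, and 7 higher and 2 lower against DC. None of the other sphingomyelinases tested was called by edgeR in the fit of all 3 populations. Smpd1, the lysosomal acid enzyme, had 34.23 ± 7.144 CPM in T cells, 67.54 ± 7.174 CPM in TDC and 25.57 ± 12.72 CPM in DC (adjusted p = 0.0960 and 0.0502), and its TDC libraries lay above all of both controls. Against DC, Smpd1 was called by DESeq2 (adjusted p = 0.0162) and limma-voom (0.0212), and by edgeR with no filter (0.0459), with a filter of 10 CPM (0.0479) and without DC replicate 3 (0.0356). Against T cells it was called in a fit of both populations alone (adjusted p = 0.0315) and without DC replicate 2 (0.0311). TDC lay above all T cell libraries for 29.6% of genes and above all DC libraries for 20.1%. Smpd2 had 39.61 ± 8.076, 37.56 ± 6.365 and 43.61 ± 9.087 CPM and Smpd4 23.09 ± 12.85, 27.76 ± 16.36 and 31.49 ± 17.73 CPM (adjusted p = 0.724 to 0.894), and Smpd3 was too low to be tested. The lysosomal ceramidase gene Asah1 was higher in TDC than in both controls, at 1453 ± 137.5 CPM against 41.09 ± 2.351 CPM in T cells and 441.9 ± 105.0 CPM in DC (adjusted p = 4.19e-06 and 0.00277). The ceramidase gene Acer3 (515.1 ± 131.5 CPM against 12.73 ± 6.518 and 113.0 ± 27.29 CPM) and Smpdl3a (500.8 ± 79.25 CPM against 136.9 ± 43.48 and 79.82 ± 22.93 CPM) were higher than in both as well (adjusted p = 3.22e-05 and 0.00703, 0.00231 and 0.00118). Sgms1, which makes sphingomyelin, was lower in TDC than in both, at 14.57 ± 6.692 CPM against 84.78 ± 8.968 and 112.6 ± 24.04 CPM (adjusted p = 0.000814 and 0.00127). Cers4, a ceramide synthase gene, had 1.248 ± 1.087 CPM in TDC against 42.30 ± 8.880 in T cells, 2.95% of the T cell level (adjusted p = 0.00693). Its relative Cers6 was lower than in DC (25.85 ± 6.074 against 87.76 ± 24.01 CPM, adjusted p = 0.00835). Cers2, of the same family, was higher than in T cells and DC (572.2 ± 60.79 CPM against 314.4 ± 39.15 and 193.4 ± 27.06 CPM, adjusted p = 0.0275 and 0.00358). Against T cells the Cers2 call was lost when any T cell library, TDC replicate 1 or TDC replicate 2 was left out (adjusted p = 0.0508 to 0.103). It was also lost with library size alone (0.491), upper quartiles (0.109) or no filter (0.103). Sgpl1, which breaks down sphingosine phosphate, was higher than in T cells (532.4 ± 345.3 against 25.55 ± 1.525 CPM, adjusted p = 0.00121). Ugcg, which makes glucosylceramide, was higher than in DC (212.1 ± 45.95 against 50.09 ± 18.88 CPM, adjusted p = 0.00493).

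**Figure D5:**
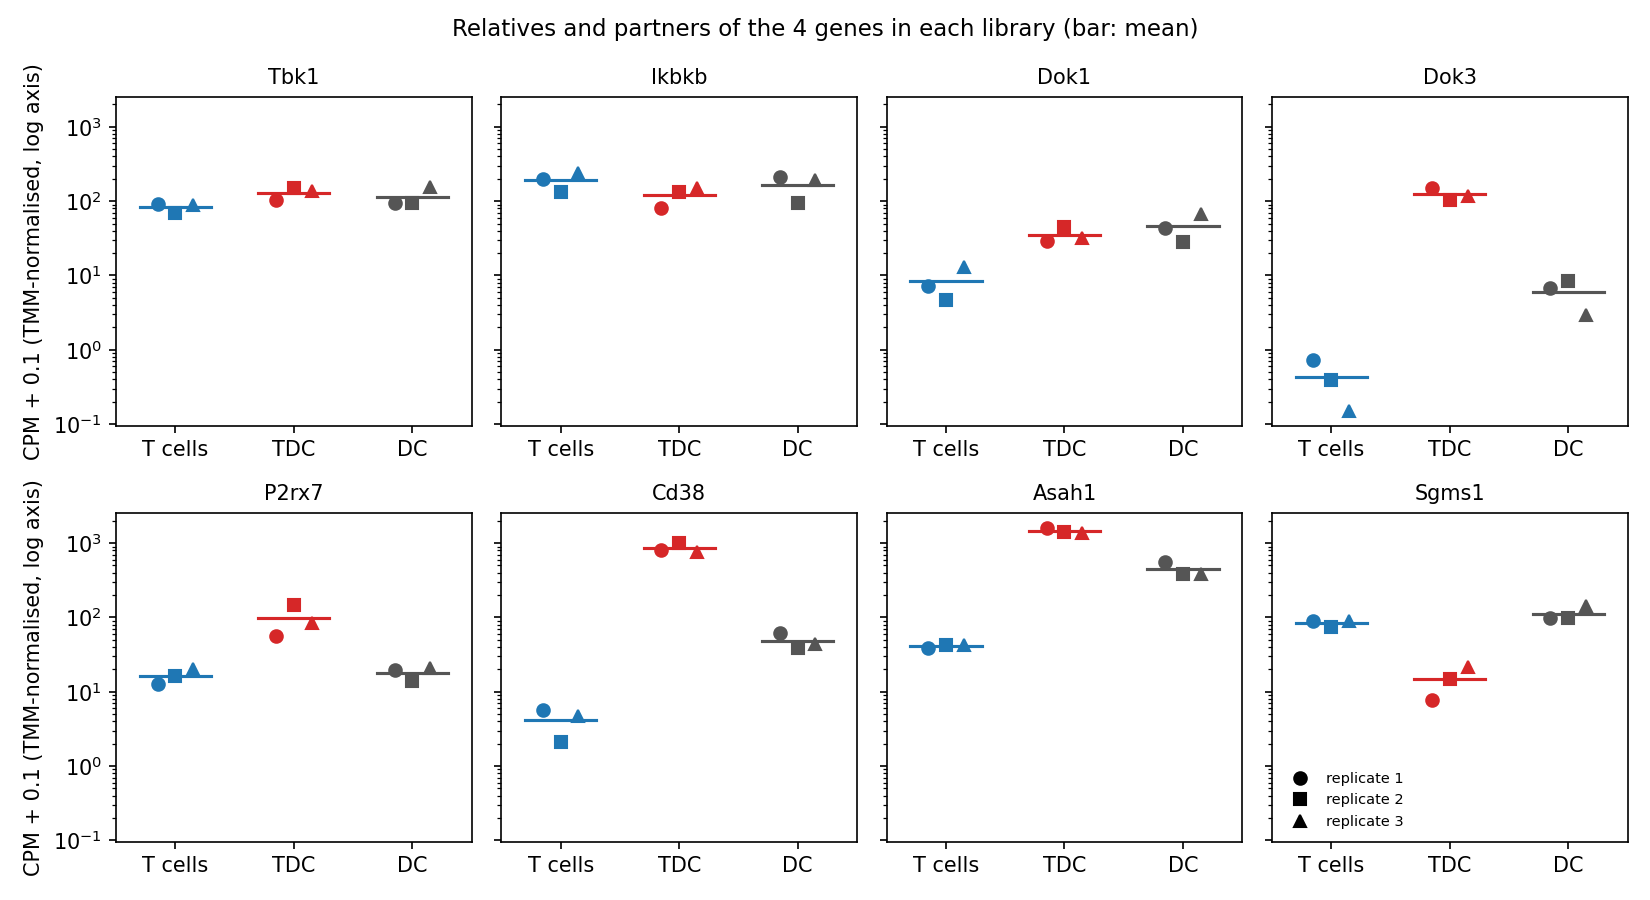
Level of 8 relatives and partners in each library as CPM plus 0.1 on a log axis, with symbols for replicates and bars for means. Tbk1 and Ikbkb are not called between TDC and either control, with TDC means at 155.6% and 63.77% of the T cell means. Dok3, P2rx7, Cd38 and Asah1 are highest in TDC, Dok1 is lowest in T cells and Sgms1 is lowest in TDC.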

How the data were processed

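Each library of the 9 was made from RNA with the Lexogen QuantSeq stranded kit, per the labels' protocols. The authors deposited whole-number read counts per gene symbol, with no scaling. FastQC, MultiQC, STAR, Trimmomatic and featureCounts were used per the submitters' processing notes, which give no versions. Their listed build is hg38, a human one, while gene symbols and samples are of mouse, so positions here come from GRCm38 annotation only. For the counting, annotation and strand setting were not given in the sources used.

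Counts were analysed with edgeR 4.0.16 in R 4.3.3. The filter filterByExpr, at a minimum count of 10 and total of 15, kept 14708 genes. CPM used TMM factors. The robust quasi-likelihood model held the 3 populations (6 residual degrees of freedom, common biological coefficient of variation 0.588). It was tested at an adjusted p of 0.05, and checked on simulated counts. Floors of 3 reads cover counting error only. Replicate libraries differed by chi-square values of 62.3 to 250 per degree of freedom, so none repeated another. The labels do not say whether same-numbered libraries of the 3 populations came from the same mice, so they were not paired, and p-values measure the spread between pools.

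The 4 genes and all lists were chosen with earlier results of these data known. Named genes were the 4, those nearest outside the limits, the 3 most alike for each, 12 relatives, neighbours and overlapping genes, marker lists, and up to 4 called genes per list, comparison and direction with the smallest adjusted p. Of the 88 list genes, 2 were found under older symbols (Art2a as Art2a-ps, Sting1 as Tmem173). Alternatives were other scalings, filters and tools (DESeq2 1.42.0, limma-voom 3.58.1), medians, other limits, a block for replicate number, and omission of each library in turn. A few genes that this rule names are not reported here.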

Additional observations from a re-analysis of the deposited data

How the results depend on the processing

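The share of the T cell level in TDC was over 10% for Art2b, Dok2 and Smpd5 in every scaling tried. The Smpd5 share was 30.15% with library size alone. Leaving out 1 library gave 8.71% to 12.6% for Ikbke, 14.2% to 29.4% for Art2b, 31.8% to 45.8% for Dok2 and 40.1% to 54.2% for Smpd5. The number of genes that met the conditions was 7 with group medians, 7 with TDC over 5%, 8 with DC at most 2%, 8 with T cells from 20 CPM, 1 with every library meeting them, and 3 to 6 without 1 library. Cd55, with a TDC share of 81.83% under TMM, entered with library size alone, DESeq2 size factors, upper quartiles, group medians and DC at most 2%. It also entered without T cell replicate 2, T cell replicate 3 or DC replicate 1. Without 1 library, 25 to 35 relatives were higher and 6 to 11 lower than in T cells, and 15 to 20 higher and 6 to 9 lower than in DC. Over all genes these ranges were 2501 to 3585 and 937 to 1945 against T cells, and 897 to 1365 and 293 to 611 against DC. With library size alone 2492 genes were higher and 3321 lower than in T cells (3204 and 1654 with TMM). Of the relatives, 22 were then higher and 14 lower than in T cells (32 and 10 with TMM). Lower than in DC were 677 genes with edgeR, 1234 with DESeq2, 1024 with limma-voom and 431 with the replicate number as a block. The causes were not tested. Fold changes of genes not called changed sign. Against T cells these were Chuk (-0.465 with library size, -0.121 with upper quartiles), Smpd4 (-0.323 and -0.01 likewise, and -0.076 to 0.834 without 1 library) and Smpd2 (-0.233 to 0.024 without 1 library), on the log2 scale. Against DC they were Tbk1 (-0.146 with library size, -0.016 to 0.476 without 1 library) and Smpd4 (-0.565 to 0.369 without 1 library). Of 1435 values of named genes under 18 alternatives, 1330 kept direction and call.

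Libraries with the same replicate number share an identifier and a pool size in the labels, which do not say that they came from the same mice. For that reason the numbers were not taken as pairs. For each gene, log2 levels were first taken relative to the mean of their own population. Correlations of same-numbered libraries of different populations then ran from -0.384 to 0.224, and 2 of 9 were over 0.1. For libraries with different numbers they ran from -0.197 to 0.363. Of the 9 libraries, 1 correlated best with a library of its own number. Such correlations, between different cell populations of 3 libraries each, cannot decide whether the mice were shared. Averaged as log ratios of same-numbered libraries, the shares were 10.44%, 19.27%, 39.12% and 46.98% for Ikbke, Art2b, Dok2 and Smpd5. Such an average does not depend on which libraries are paired, so it cannot speak to pairing. With the replicate block in the fit, 27 relatives were higher and 8 lower than in T cells and 16 higher and 6 lower than in DC. With the block, calls ended against T cells for Relb (adjusted p = 0.0606), Nfkb1 (0.0713), Art4 (0.0781), Nt5e (0.0679) and Cers2 (0.0566), and against DC for Chuk (0.0514), Irf7 (0.0744), Art4 (0.0723), Nt5e (0.0521) and Sh2d1a (0.0573).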
